A study of Mus musculus with 12 samples.

Results

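miR-192 and miR-194 are microRNAs (miRNAs) of the mouse genome that were followed here through 12 small RNA libraries from the hippocampus. Their members were the sequence tags that matched a GENCODE hairpin of miR-192 (1 locus) or miR-194 (2 loci) exactly over their whole length. This gave 36 distinct tags with 316636 reads, out of 30022027 reads that matched any of 1174 annotated miRNA hairpins in the same way (1.05%). The members were chosen by sequence, with their measured counts and shares in these libraries already known. Their levels, the differences of these levels between libraries and the ratio of the members are therefore given as a description. Nothing is read from a test of these values.

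The libraries came from the hippocampi of single C57BL/6NCrl mice, which the study describes as males of 6 to 8 weeks. Of the 6 groups, 1 was untreated (NT) and 5 were taken 0.5, 1, 3, 6 or 24 h after electroconvulsive shock (ECS), a current that depolarizes neurons across the brain at once. Each group holds 1 library of a first time course (suffix -1) and 1 of a second (suffix -2). The untreated mice carried no sham treatment in the labels, and no allele or drug differs between the groups. Small RNA of about 18 to 24 nt was cut from a gel in all of them, so longer and shorter products are outside the measurement. The libraries hold whole tissue, in which fewer cells of a type and less RNA per cell cannot be told apart.

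Each library held between 1897490 and 7657222 accepted reads, of which 439336 to 4282006 matched a miRNA hairpin exactly. The 2 time courses stood apart. Tags of 22 nt or more made up 7.46% ± 4.67 (SD, n = 6) of the miRNA reads in the first, against 41.8% ± 8.18 (SD, n = 6) for the second. NT-1 also stood apart within its own course, since 51.4% of its miRNA reads were of 18 or 19 nt, against 4.54% to 16.9% in the other 5. The 6 neuronal miRNAs listed as markers (miR-124, miR-9, miR-128, miR-138, miR-132 and miR-7) were present in every library and together made up 6.09% to 31.3% of the miRNA reads.

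A miRNA is cut from a hairpin precursor that yields a product from its 5′ arm (5p) and one from its 3′ arm (3p), usually in unequal amounts. The product is loaded into an Argonaute protein and pairs with messenger RNAs mainly through its seed, the bases at positions 2 to 8. miR-192 and miR-194 lie side by side in the genome, are made from shared primary transcripts, and are known mostly from liver, kidney and intestine. They are also known as transcriptional targets of p53. miR-215 belongs to the same family, with a seed in common with miR-192.

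The mature forms show how the family is built, so they are given first. They are the RefSeq sequences on GRCm38.p6, with the seed in capitals.
miR-192-5p: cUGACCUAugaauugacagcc
miR-215-5p: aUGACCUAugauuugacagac
miR-194-5p: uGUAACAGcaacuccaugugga
miR-192-3p: cUGCCAAUuccauaggucacag
miR-194-1-3p: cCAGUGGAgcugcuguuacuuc
miR-194-2-3p: cCAGUGGGgcugcuguuaucug

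The seed UGACCUA is held by miR-192-5p and miR-215-5p and by no other mature mouse sequence of the RefSeq table. These 2 forms agree at 18 of 21 positions and differ by C1A, A12U and C20A, written with the miR-192 base first and counted from the 5′ end. The seed GUAACAG is held by miR-194-5p alone. The 3p products of the 2 miR-194 loci differ in the last base of the seed, whereas the 5p product is the same from both loci up to its 22nd base.

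On GRCm38, Mir192 lies at chr19:6264844-6264932 and Mir194-2 at chr19:6264643-6264728, both on the plus strand with a gap of 115 bp. GENCODE places neither inside another gene. The nearest protein-coding gene before them is Atg2a, which ends 2307 bp before Mir194-2, and the nearest after them is Ehd1, which starts 11792 bp after Mir192. Mir194-1 lies at chr1:185313319-185313385 and Mir215 at chr1:185313581-185313692, both on the plus strand with a gap of 195 bp. This second cluster lies in an intron of Iars2, which is read from the other strand. The noncoding gene 2010103J01Rik runs over it in the same direction, with Mir194-1 in an intron and Mir215 in an exon.

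miR-192 5p held 315153 of the 316636 member reads and was among the more abundant miRNA arms of these libraries. It ranked between 5th and 45th among the 445 to 753 arms counted in a library. In the first time course its share of the miRNA reads was 0.707% in NT-1 (95% Wilson interval 0.692% to 0.723%), 1.58% in 0.5h-1, 2.20% in 1h-1, 5.35% in 3h-1, 2.93% in 6h-1 and 1.52% in 24h-1. In the second it was 0.997% in NT-2, 0.312% in 0.5h-2, 0.555% in 1h-2, 0.441% in 3h-2, 0.628% in 6h-2 and 0.478% in 24h-2. The 3 h library of the first course was the highest of the 12, and the 0.5 h library of the second was the lowest. The 2 courses overlapped only through NT-1, which lay below NT-2. The first course averaged 2.38% ± 1.63 (SD, n = 6), and 0.568% ± 0.236 (SD, n = 6) was the mean of the second. Reads were amplified without molecular identifiers, so all intervals given cover counting error only.

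miR-194 5p was far scarcer, with 1478 reads in all. Its counts in the first time course were 4 in NT-1, 99 in 0.5h-1, 12 in 1h-1, 4 in 3h-1, 0 in 6h-1 and 121 in 24h-1. In the second they were 219 in NT-2, 296 in 0.5h-2, 179 in 1h-2, 142 in 3h-2, 235 in 6h-2 and 167 in 24h-2. As a share of the miRNA reads this came to 0.000266% to 0.00564% in the 5 libraries of the first course with a count. In 6h-1 the count of 0 allows a share of up to 0.000683%. The second course ran from 0.00342% at 3 h to 0.0178% at 6 h, so the courses overlapped through the 0.5 h and 24 h libraries of the first. Means were 0.00210% ± 0.00268 (SD, n = 6) and 0.00709% ± 0.00543 (SD, n = 6).

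The 3p arms were nearly absent. No tag of miR-192 3p was found in any of the 12 libraries, which allows a share of at most 0.0000701% in the deepest library, NT-2, and 0.000683% in the shallowest, 6h-1. miR-194 3p had 5 reads in all, 1 in NT-2 and 4 in 3h-2. miR-215 5p, which has the miR-192 seed, was counted 87 times and in every library, with 1 to 13 reads each. At such counts the seed UGACCUA in these libraries was carried almost wholly by miR-192 5p.

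**Figure D1:**
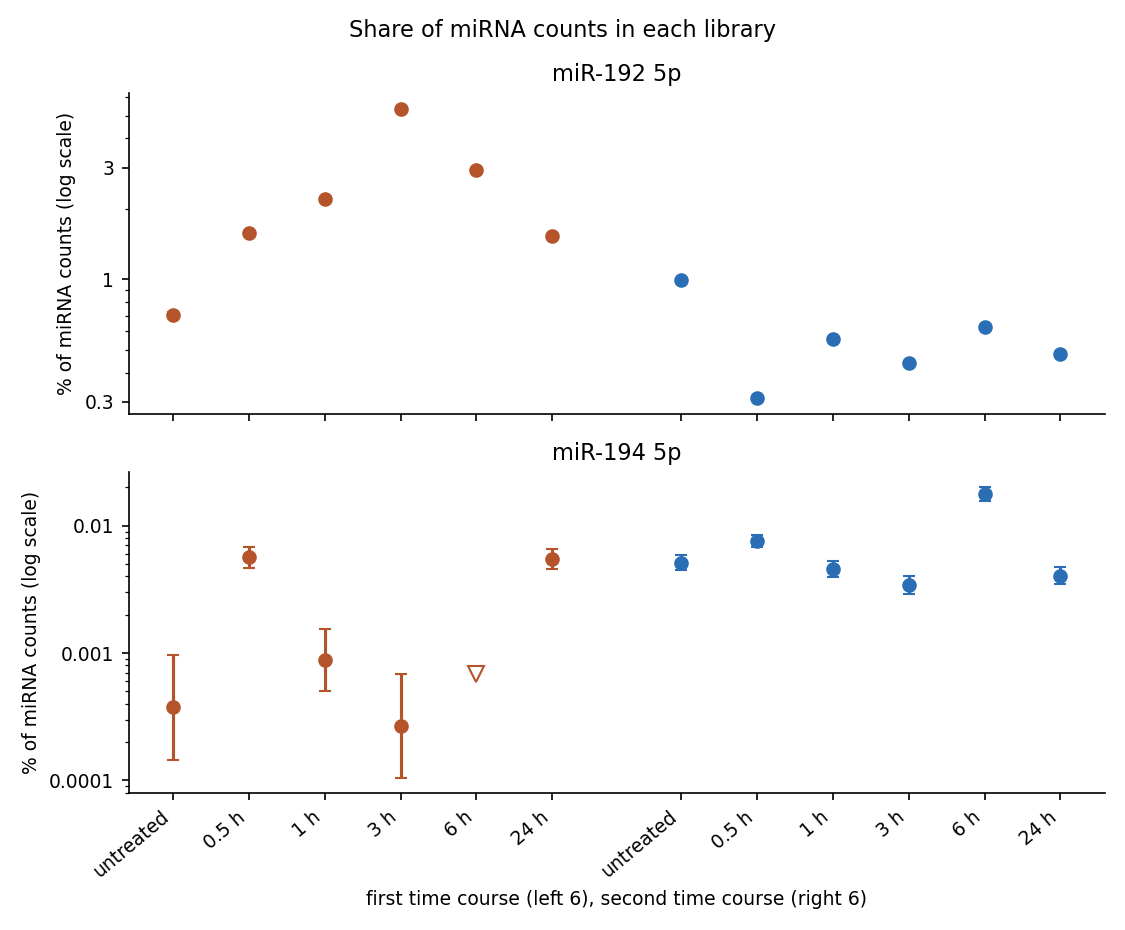
Percent of all exact miRNA counts (log axis) held by miR-192 5p (top) and miR-194 5p (bottom) in each library, with 95% Wilson intervals, and the open triangle is the limit that a count of 0 allows. miR-192 5p ran from 0.312% to 5.35%, highest at 3 h of the first time course, whereas miR-194 5p was lowest in 4 libraries of that course.

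The tags themselves show which forms these reads were. They are printed as read, in DNA letters with the seed in capitals, to show where the reads of each arm begin and end.
miR-192 5p, 20 nt: cTGACCTAtgaattgacagc
miR-192 5p, 21 nt: cTGACCTAtgaattgacagcc
miR-192 5p, 22 nt: cTGACCTAtgaattgacagcca
miR-192 5p, start 1 base later: tGACCTATgaattgacagcc
miR-194 5p, 23 nt: tGTAACAGcaactccatgtggaa
miR-194 5p, 22 nt: tGTAACAGcaactccatgtgga
miR-194 5p, 20 nt: tGTAACAGcaactccatgtg

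The 20 nt tag of miR-192 5p, 1 base shorter than the RefSeq form, was read 145966 times and made up 46.3% of the arm. The RefSeq form itself gave 126095 reads (40.01%) and the 22 nt tag 23468 reads (7.45%). Of all miR-192 5p reads, 94.8% began at the RefSeq start and 5.19% began 1 base later, which moves the seed to GACCUAU. No mature mouse sequence in the RefSeq table has that seed. The later start made up 19.3% of the miR-192 5p reads in NT-1 and 3.15% to 6.96% in the other 11 libraries. NT-1 is the library with the excess of 18 and 19 nt reads, and the part of that in its start positions was not tested.

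miR-194 5p ended further out. Its leading tag of 23 nt was 1 base longer than the RefSeq form and made up 62.0% of the arm with 917 reads, and the RefSeq form made up 21.4% with 317 reads. Of the arm's reads, 99.6% began at the RefSeq start, so its seed hardly varied. The 23 nt tag also bears on the locus, since the 2 hairpins differ in the base after the RefSeq end. Here that base is in capitals.
miR-194 5p, matching Mir194-2 only: tgtaacagcaactccatgtggaA
miR-194 5p, matching Mir194-1 only: tgtaacagcaactccatgtggaC

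The tag that ends in A had 917 reads and the tag that ends in C had 1. In all, 555 reads matched both loci, 922 matched Mir194-2 only and 1 matched Mir194-1 only. The reads that told the loci apart thus matched the copy beside Mir192, but a final A copied from Mir194-2 and an A added to the shorter form of either locus cannot be told apart by sequence. Among the 5 reads of the 3p arm, where the loci differ inside the product, 3 matched Mir194-1 and 2 matched Mir194-2.

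The lengths of miR-192 5p differed between the time courses. Its tags of 20 nt made up 42.0% to 76.9% of the arm in the first course and 25.2% to 32.3% in the second, with no overlap. Tags of 22 nt or more made up 0.0543% to 5.15% in the first and 10.96% to 21.2% in the second. The first course had a mean tag length of 20.29 ± 0.26 nt (SD, n = 6) and the second one of 20.87 ± 0.07 nt (SD, n = 6), and the tags were longer in the second in all 6 pairs of libraries. A two-sided exact permutation test over the 64 ways to exchange the pairs gave p = 0.03125, which is the smallest possible here. Adjusted over the 2 measures tested this way, length and the 3′ ends given further on, p was 0.0625. It was 0.0469 when the ratio of the members, which was also planned for this test, is counted among them. That value rests on the ratio, which comes from the counts that the members were chosen with, so no pass is read from it. A single measure at the smallest possible p cannot pass after adjustment in this design. The miRNA reads as a whole moved the same way in their share of 22 nt or more. Their share of 20 nt overlapped, at 25.3% to 59.8% in the first course and 32.8% to 37.9% in the second. Their share of 21 nt was 18.4% to 46.99% in the first and 15.2% to 30.1% in the second. For miR-192 5p the share of 21 nt was 8.82% to 51.1% in the first and 50.4% to 55.98% in the second. No length difference particular to miR-192 was tested.

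**Figure D2:**
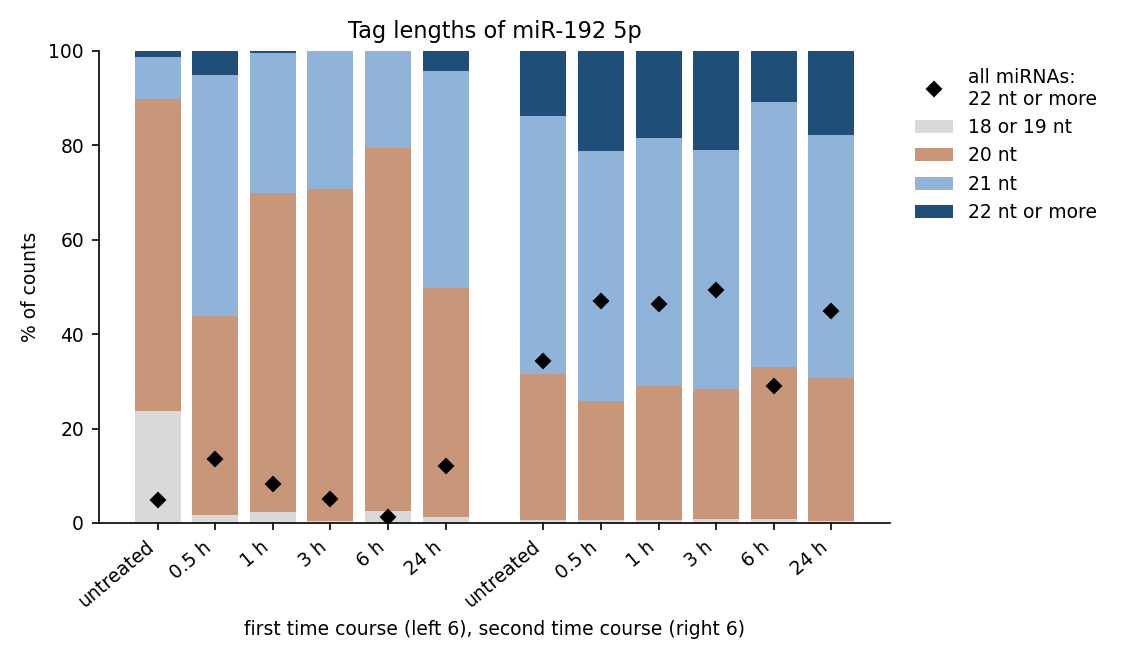
Stacked bars give the percent of miR-192 5p counts in each tag length per library, and diamonds give the percent of all exact miRNA counts of 22 nt or more. Tags of 20 nt lead in 5 libraries of the first time course, NT-1 has the most tags of 18 or 19 nt (23.7%), and every library of the second time course has over 10% of tags of 22 nt or more.

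The difference of the members between the time courses was estimated with edgeR, in a model with the time point as a covariate over 469 arms. In it, 151 arms (32.2%) differed at an adjusted p under 0.05, of which 93 were higher in the second course (19.8%) and 58 lower (12.4%). miR-194 5p had a log2 fold change of 3.09 ± 0.94 (SE) and was 1 of the 93. miR-192 5p lay the other way, at -1.30 ± 0.55 (SE), and was in neither group. Both members were chosen with these counts known, and with close to 1 arm in every 3 called nothing is read from their place among the calls. When libraries were scaled by their total miRNA count instead of by TMM factors, 162 arms were called, 49 higher and 113 lower, and the median log2 fold change over all arms moved from 0.29 to -0.30. Under that scaling miR-192 5p stood at -1.94, among the lower arms, and miR-194 5p at 2.48.

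Both places changed when single libraries were left out. miR-194 5p was not among the called arms without NT-1 (2.69), NT-2 (2.73), 1h-1 (3.01) or 1h-2 (2.96). miR-192 5p was among the lower arms without NT-1 (-1.76), NT-2 (-1.74) or 6h-2 (-1.43). In such a fit the partner of the library left out is absorbed by its time point.

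Within the first time course, tag length moved with the level of miR-194 5p. There, 0.5h-1 and 24h-1 had the most miRNA reads of 22 nt or more (13.5% and 12.03%) and the most miR-194 5p (99 and 121 reads). The other 4 libraries of that course had 1.25% to 8.20% of such reads and 0 to 12 reads of miR-194 5p. In the second course the extremes ran the other way. The lowest share of such reads (29.0%) and the highest level of miR-194 5p (0.0178%) were both in 6h-2. The highest share (49.4%) and the lowest level (0.00342%) were both in 3h-2. When only tags of 22 and 23 nt were counted, for every arm, miR-194 5p averaged 0.0118% ± 0.0146 (SD, n = 6) over the first course and 0.0176% ± 0.0187 (SD, n = 6) over the second. The 2 highest values of the first course on this scale, 0.0305% and 0.0307%, lay above 5 of the 6 values of the second. Its log2 fold change was then 0.63 ± 0.74 (SE), and that of miR-192 5p was 0.36 ± 0.61 (SE), in the same direction. Among tags of 20 and 21 nt, miR-192 5p stood at -1.41 ± 0.54 (SE) and miR-194 5p at 1.70 ± 0.97 (SE). The part of tag length in the difference between the courses was not tested. The counts within a length class were small, with 0 to 4 reads of 22 and 23 nt for miR-194 5p in 4 libraries of the first course. These length classes were chosen after the data had been seen.

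**Figure D3:**
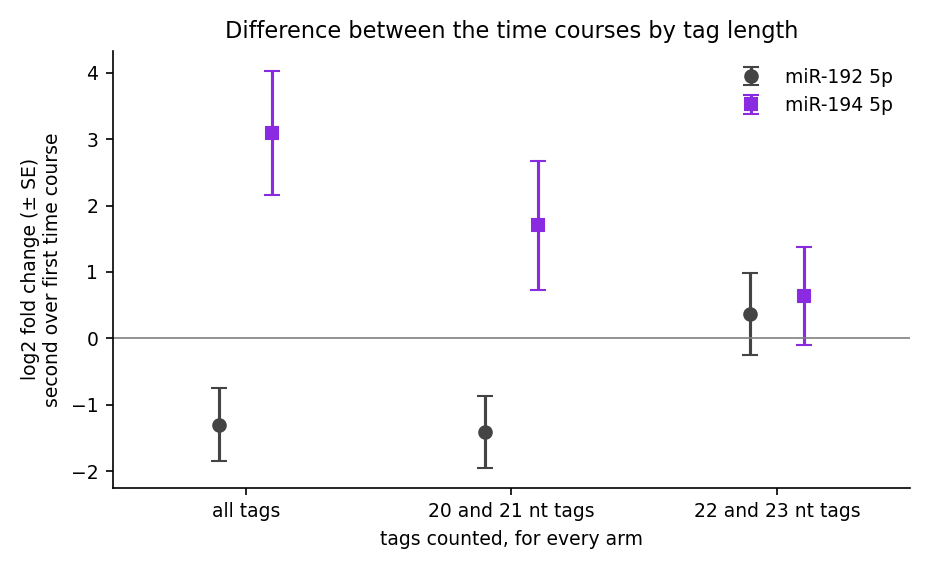
edgeR log2 fold change of the second over the first time course (± SE, 6 libraries each) for miR-192 5p (circles) and miR-194 5p (squares), from all tags, from tags of 20 and 21 nt and from tags of 22 and 23 nt. The members lie at -1.30 and 3.09 over all tags and at 0.36 and 0.63 over tags of 22 and 23 nt.

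The ratio of the neighbours spanned a wide range. For each read of miR-194 5p the first time course held 1888 reads of miR-192 5p in NT-1, 281 in 0.5h-1, 2494 in 1h-1, 20078 in 3h-1 and 280 in 24h-1. At 6 h no miR-194 5p was read, and 3 reads in its place put the ratio at 4294 or above. In the second course the ratio was 195 in NT-2, 41.1 in 0.5h-2, 122 in 1h-2, 129 in 3h-2, 35.3 in 6h-2 and 118 in 24h-2. Every library of the first course thus lay above every library of the second. With 0.5 reads added, the log2 ratio averaged 11.16 ± 2.82 (SD, n = 6) over the first course and 6.48 ± 0.99 (SD, n = 6) over the second, with the same order in all 6 pairs. Among tags of 22 and 23 nt the courses overlapped. There the ratio was 104 in NT-1 (on 1 read of miR-194 5p), 19.9 in 0.5h-1, 34 in 1h-1, 20 in 3h-1 and 18.1 in 24h-1, with no read of miR-194 5p in 6h-1, and 4.37 to 34.2 in the second course. These are ratios of reads. The ligation yield of each tag was not measured, so they do not give the ratio of molecules.

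The study's own question was the course of miRNA levels after ECS. Because its 2 time courses differed, the study held an accurate answer from these sequencing libraries to be unlikely. It turned to PCR arrays and single PCR assays, in which most miRNAs fell at late times after ECS. The fits given here are no test of that result. In the edgeR fit over 6 groups of 2, neither member was called against untreated, and no arm of the 469 was called at any of the 5 times (0%), with 2 to 10 arms at an unadjusted p under 0.05, while DESeq2 called 1 arm at 0.5 h, 2 at 3 h and none at the other times. The largest estimate for miR-192 5p was at 3 h, a log2 fold change of 2.15 ± 1.21 (SE). At the other times it lay between 0.13 and 0.97 with SEs of 1.16 to 1.17. Estimates for miR-194 5p ran from -0.21 at 1 h to 2.22 at 6 h with SEs of 1.89 to 1.97. With the time course as a block, the estimate of miR-192 5p at 3 h was 1.33 ± 0.94 (SE), and those of miR-194 5p were 2.59 ± 1.43 (SE) at 0.5 h, 1.87 ± 1.34 (SE) at 6 h and 2.69 ± 1.45 (SE) at 24 h, against 1.12, 2.22 and 0.94 without it. No arm was called with the block either, with 12 to 32 arms at an unadjusted p under 0.05 by edgeR. With errors of this size, changes of 2-fold in either direction were not detectable.

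Within each time course the ECS libraries of miR-192 5p lay on 1 side of the untreated library, and the sides were opposite. In the first course all 5 were above NT-1, by 2.24-fold in 0.5h-1, 3.11-fold in 1h-1, 7.56-fold in 3h-1, 4.15-fold in 6h-1 and 2.16-fold in 24h-1. In the second all 5 were below NT-2, by 3.20-fold in 0.5h-2, 1.80-fold in 1h-2, 2.26-fold in 3h-2, 1.59-fold in 6h-2 and 2.09-fold in 24h-2. The directions were the same with TMM-scaled CPM, where NT-1 had 4709 against 11697 to 62940 in its course, and NT-2 had 10942 against 3220 to 9692 in its own. With 1 untreated library in each course, these folds carry the spread of that library, and the difference between the courses was not tested. The share of all arms with such an order was not counted, so no trait of miR-192 is read from it. The low value of NT-1 belongs to the library with 51.4% of reads at 18 or 19 nt. Among tags of 20 and 21 nt, NT-1 was again the lowest of its course (1.21% against 1.73% to 6.56%) and NT-2 the highest of its own (1.33% against 0.470% to 0.858%). Among tags of 22 and 23 nt, NT-1 (0.203%) lay above 1h-1 (0.123%), 3h-1 (0.0805%) and 6h-1 (0.128%) and below the other 2 ECS libraries of its course, so the order did not hold there, whereas NT-2 (0.410%) was again the highest of its own (0.147% to 0.241%).

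miR-194 5p had no such order. In the first course 0.5h-1 and 24h-1 exceeded NT-1 by 15.1-fold and 14.5-fold, on 4 reads in NT-1, whereas 3h-1 had the same 4 reads and 6h-1 had none. In the second course 6h-2 exceeded NT-2 by 3.48-fold and 0.5h-2 by 1.49-fold, and the other 3 libraries lay below it. The log2 ratio of miR-192 5p to miR-194 5p was 9.16 ± 2.20 (SD, n = 2) in untreated and 8.75 ± 3.42 (SD, n = 10) in ECS libraries. The mean tag length of miR-192 5p was 20.34 ± 0.68 nt (SD, n = 2) in untreated and 20.63 ± 0.30 nt (SD, n = 10) in ECS libraries (exact permutation test over the 36 choices of 1 library of each course as untreated, two-sided, p = 0.0556, adjusted p = 0.0556 over 2 measures and 0.0833 with the ratio counted).

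**Figure D4:**
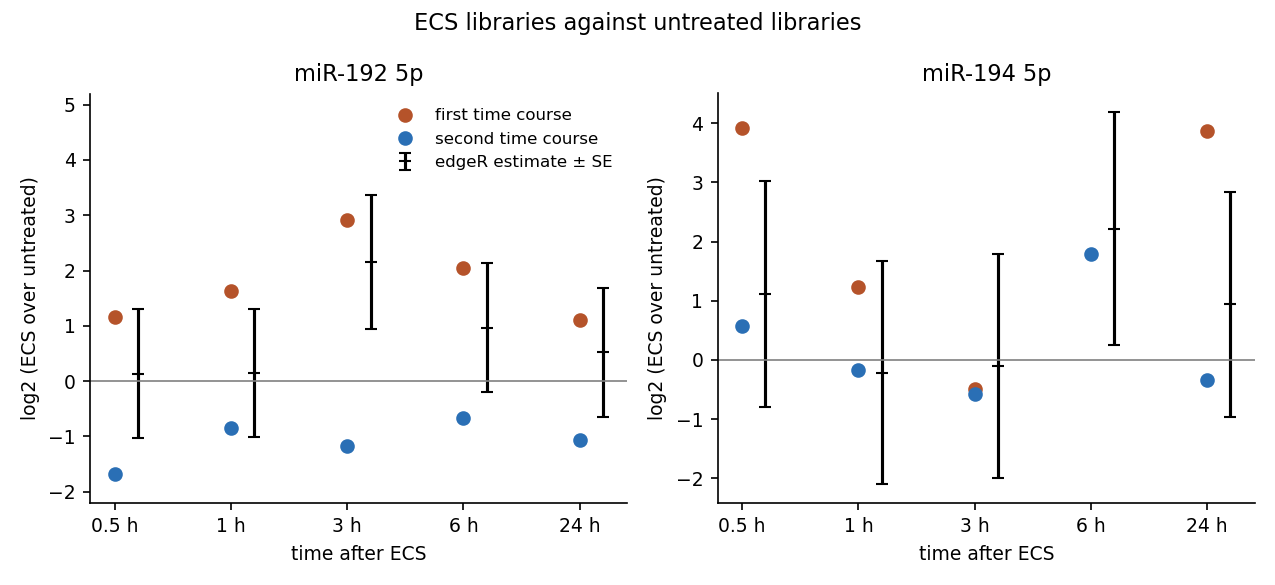
log2 ratio of the percent of miRNA counts in each ECS library to that in the untreated library of its own time course (points), beside the edgeR log2 fold change over both courses (bars, ± SE), for miR-192 5p (left) and miR-194 5p (right, where 6h-1, with a count of 0, has no point). For miR-192 5p the first time course lies above 0 and the second below 0 at every time.

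Many miRNAs gain bases after cutting, mostly A or U added by nucleotidyl transferases, and such tags escape an exact match. They were counted as tags whose first 18 nt match the arm and whose 3′ end then departs from the hairpin. For miR-192 5p this applied to 38623 of 353776 reads, with A alone on 3.69%, U alone on 2.35% and any other end on 4.88%. In the first course the departing share was 6.40% in NT-1, 13.1% in 0.5h-1, 10.5% in 1h-1, 11.9% in 3h-1, 11.1% in 6h-1 and 9.11% in 24h-1. In the second it was 7.80% in NT-2, 15.4% in 0.5h-2, 10.9% in 1h-2, 13.2% in 3h-2, 9.91% in 6h-2 and 10.99% in 24h-2. The untreated library was the lowest of its course in both, and the 2 untreated values lay below all 10 ECS values.

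The departing share averaged 11.6% ± 1.84 (SD, n = 10) after ECS and 7.10% ± 0.994 (SD, n = 2) in untreated libraries. In NT-1, 23.7% of the exact miR-192 5p reads were of 18 or 19 nt, and a tag of 18 nt cannot depart by this definition. The part of short reads in the difference was not tested. The exact permutation test over the 36 choices gave p = 0.0278 (two-sided), the smallest this design allows, so that 1 measure alone cannot pass after adjustment. The adjusted p was 0.0556 over 2 measures and 0.0833 with the ratio counted. The difference of 4.50 points was 4.27 without NT-1 and 4.73 without NT-2. Each of these leaves 1 untreated library, too few for a test to decide, so only the size is given. The difference was 4.35 without 3h-2 (exact permutation test, p = 0.0667). Over all miRNAs counted in the same way the share was 10.96% in NT-1 and 12.9% in NT-2, against 11.99% to 21.9% after ECS. NT-1 was again the lowest of its course, but in the second course 6h-2 lay below NT-2. This share of all miRNAs averaged 17.15% after ECS and 11.95% in untreated libraries. The share of miR-192 5p minus that of all miRNAs was -4.56 points in NT-1 and -5.14 points in NT-2. Both lay within the range of the ECS libraries, from -10.82 points in 6h-1 to -2.08 points in 6h-2. On this scale the untreated libraries did not stand apart, and no difference particular to miR-192 was tested. Between the courses the departing share of miR-192 5p differed by 1.02 points, higher in the second in 5 of 6 pairs (exact permutation test, two-sided, p = 0.0938, adjusted p = 0.0938 over 2 measures). The kinds of end were unlike in the 2 courses, which was not tested. In the ECS libraries of the first course other ends made up 5.005% to 9.10% and added U 0.879% to 2.25%, whereas in those of the second other ends made up 2.37% to 4.02% and added U 1.90% to 5.77%. Sequencing errors near the 3′ end enter the class of other ends, and their part in it was not tested.

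**Figure D5:**
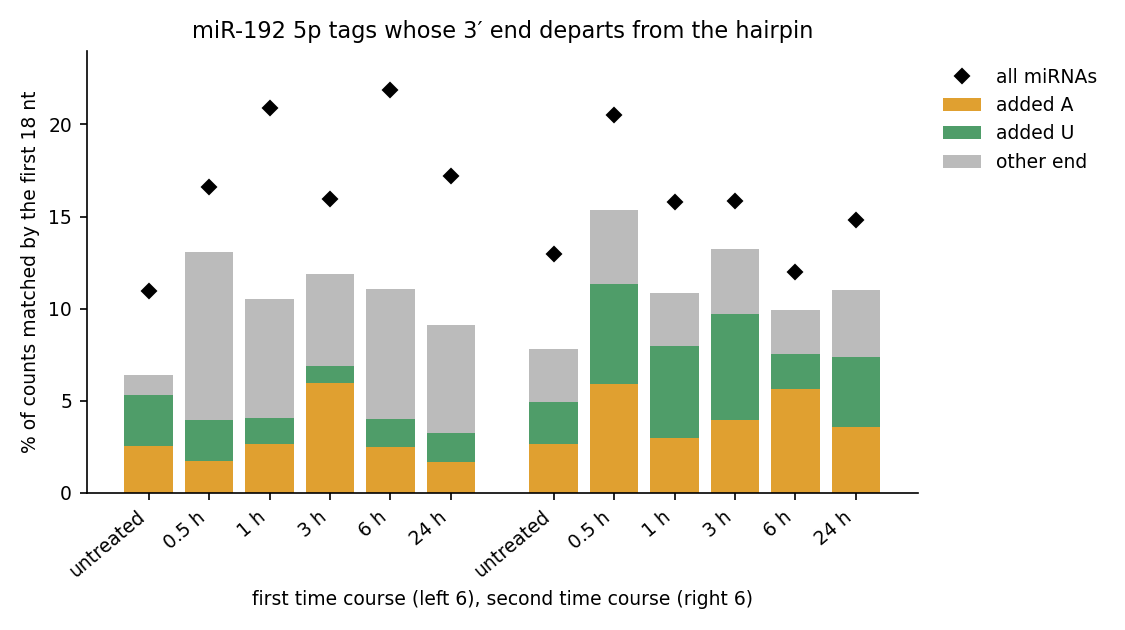
Percent of miR-192 5p counts, matched by the first 18 nt, whose 3′ end departs from the hairpin by A alone, U alone or another end (stacked bars) in each library, with the departing share over all miRNAs as diamonds. The untreated bars, at 6.40% and 7.80%, are the lowest of their time courses.

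For miR-194 5p, 1478 of 1808 reads matched by the first 18 nt matched a hairpin to their end (81.7%). These include the 917 reads of the 23 nt tag, whose final A may be copied or added. Beyond these matches, A alone followed on 5.75%, U alone on 3.21% and another end on 9.29%. In the second course the departing share ran from 10.6% in NT-2 to 23.5% in 0.5h-2, with NT-2 again the lowest. In the first course only 0.5h-1 and 24h-1 had over 100 reads to judge it by, with 18.2% and 28.8%.

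Arms that followed the members most closely were sought by the SD of the log2 ratio over the 12 libraries, among arms with at least 10 reads in each, as a description. For miR-192 5p the closest was miR-30c 3p, with an SD of 0.50, followed by miR-323 3p (0.59), miR-322 3p (0.67), miR-488 3p (0.71) and miR-99a 5p (0.74). The median over the 211 arms compared was 1.41. For miR-194 5p the closest were miR-29c 3p (1.20), miR-26b 5p (1.27), miR-29b 3p (1.35), let-7g 5p (1.40) and miR-409 5p (1.42), against a median of 2.61 over 212 arms. The libraries compared share the step between the time courses, which enters every one of these values.

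Other miRNAs known from liver, kidney, gut and other epithelia were followed as a list of 14, miR-215 among them. Of these, 12 had a count, and together they made up 0.0431% to 0.135% of the miRNA reads of a library, less than miR-192 5p alone in every library. miR-141 and miR-802 had no read. Of the 10 that were tested between the time courses, 3 were higher in the second by edgeR and none was lower, beside 19.8% and 12.4% of all arms. These were the liver miRNA miR-122 (log2 fold change of 2.27, adjusted p of 0.0467), and the epithelial miRNAs miR-200a (3.55, adjusted p of 0.00220) and miR-200b (3.11, adjusted p of 0.0385). The median of the 10 was 1.40, beside 0.29 over all arms. miR-215 5p, at -0.92 with an adjusted p of 0.278 (edgeR), did not pass.

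The second list held 9 miRNAs known to respond to p53, the members among them, and all 9 were tested. By edgeR, miR-143 3p and miR-145a 3p were lower in the second time course (12.4% of all arms). Their log2 fold changes were -2.59 and -2.02, with edgeR adjusted p of 0.00220 and 0.00618. Both miRNAs are known from smooth muscle, and p53 is known to promote their maturation. The 3p arm of miR-145 was the more abundant one here. miR-194 5p was among the higher arms (19.8% of all arms). The members were chosen with these counts known, so nothing is read from their places. The other 6, miR-34a, miR-34b, miR-34c, miR-107, miR-192 and miR-215, did not pass, and the median of the list was -0.004. No arm of either list was called after ECS.

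Marker miRNAs of other tissues that a dissection could carry were present at various levels. Those of the choroid plexus (3 of 4 with a count, miR-211 at 0) summed to 0.0123% to 0.630% of the miRNA reads of a library. The sums were 0.0357% to 1.10% for blood (5 of 5), 0.258% to 1.69% for muscle (4 of 4) and 0.000306% to 0.00546% for pancreas (3 of 3). The muscle sum was mostly miR-1a 3p (mean 0.932%), with miR-206 3p at 0.0124%, 72 reads of miR-133a 5p and 4 of miR-133b 3p. The blood sum was mostly miR-142 5p (mean 0.298%), with miR-144 3p at 0.0380%, miR-486 5p at 0.00913%, miR-451a 5p at 0.00429% and 10 reads of miR-223 3p. In the choroid plexus sum miR-448 3p (mean 0.119%) and miR-1298 5p (0.0472%) led, with miR-204 3p at 0.00505%. By edgeR, 2 of the 4 blood markers tested were lower in the second course (miR-144 at -3.82 and miR-142 at -2.60, beside 12.4% of all arms), whereas miR-451 (1.59) and miR-486 (0.58) did not pass, and none of the choroid plexus, muscle or pancreas markers passed. Of the 6 neuronal markers tested, 1 was higher (miR-7 at 1.49, beside 19.8% of all arms) and 1 lower (miR-138 at -1.80, beside 12.4%). Nothing about neurons is read from these counts. The part of any of these tissues in the level of miR-192 or miR-194 was not tested.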

How the data were processed

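The authors cloned gel-selected small RNA with an Illumina small RNA kit, sequenced it on a Genome Analyzer IIx and removed adapters with the miR-Intess pipeline. The deposited files list every distinct tag of at least 18 nt with its raw read count, before alignment or normalization. One composition table of the study prints the 2 untreated libraries in the opposite order from its other tables, and the deposited totals follow the others. The authors' genome build was NCBI assembly 37, but the counts carry no coordinates.

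A tag was counted for a hairpin of GENCODE M21 (GRCm38) that it matched exactly over its whole length. Tags matching several miRNAs were split equally (0.899% to 4.83% of miRNA counts), and those matching both miR-194 loci counted once. Members, lists and tests were chosen with earlier results of these data known. Every member arm with a tag, miR-215, the 5 arms most like each member and the listed miRNAs are named. Lists were counted by the more abundant arm of each miRNA.

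Arms that reached 10 counts in 2 or more libraries entered edgeR 4.0.16 (R 4.3.3, TMM, quasi-likelihood test, Benjamini-Hochberg adjustment, threshold 0.05). ECS was fitted as 6 groups over all 12 libraries, and the time course with the time point as covariate. The SE was taken as the log2 fold change divided by the root of F. The scripts were tested on simulated data. Mean length and 3′ ends per library were compared by exact permutation tests (scipy 1.17.1). Estimates for the members themselves are printed without p-values, although tests of them and of their ratio were planned, because the members were chosen with these counts known. The study states that a suffix marks a time course, and same-numbered libraries deviated together (mean correlation 0.519, range 0.308 to 0.786, over 15 pairs of time points). No 2 libraries agreed within sampling noise (lowest chi-square per degree of freedom 32.3 over 66 pairs). Counts of 0 are given with the limit that 3 counts would set. Other scalings, filters, matching rules, fits with DESeq2 1.42.0, tag lengths and left-out libraries were tried as alternatives.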

Additional observations from a re-analysis of the deposited data

Results flagged for a closer look

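Among the 6 libraries of a time course, 4 values stood apart from the others by Dixon's criterion at the 95% level (the gap to the nearest value, as a share of the range). In all, 22 sets of 6 values were examined, of which about 1.1 would be marked by chance. The 6 libraries of a course differ in treatment and time, so they are not replicates of 1 group.

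miR-194 5p made up 0.0178% of the miRNA reads in 6h-2, against 0.00342% to 0.00760% in the other 5 libraries of the second time course. That library was also the shallowest of its course.

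The share of miR-192 5p reads that started 1 base later was 19.3% in NT-1, against 3.15% to 6.96% in the other 5 libraries of the first course. The share of miR-192 5p reads of 18 or 19 nt was 23.7% in NT-1, against 0.374% to 2.62% in the others.

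Tags of miR-192 5p that ended in added A made up 5.99% in 3h-1, against 1.71% to 2.66% in the other libraries of the first course. This library also had the highest share of miR-192 5p of all 12.

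The ECS libraries lay on opposite sides of the untreated library in the 2 courses. The percent of miRNA reads held by miR-192 5p was on average 2.01 points above NT-1 in the 5 ECS libraries of the first course and -0.515 points from NT-2 in those of the second. All 5 libraries shared the direction in each course, and the difference between the courses was not tested. The share of all arms that did the same was not counted.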

How the results depend on the processing

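Among 26 results, 161 of 181 alternative values other than leaving out a library kept their direction and their side of the threshold, or stayed within the spread or within 1.5 times the count. After ECS, miR-192 5p at 0.5 h turned to -0.21 with no filter, -0.20 with at least 10 counts in 6 libraries, -0.062 with the first 18 nt matched, -0.047 with only the 2 groups compared and -0.53 with the replicate block. The block also turned miR-192 5p (-0.31) and miR-194 5p (0.077) at 1 h, and changed no call of a member. It took miR-194 5p from 1.12 to 2.59 at 0.5 h and from 0.94 to 2.69 at 24 h. DESeq2 called 1 arm at 0.5 h and 2 at 3 h, and no filter gave 1 at 3 h. Between time courses, miR-192 5p gained a call under total-count scaling (-1.94), DESeq2 (-1.33), tags that match 1 miRNA (-1.45) and without the time point in the fit, that is with no replicate block (-1.61). Tags of 22 and 23 nt, chosen after seeing the data, turned miR-192 5p to 0.36, took the call from miR-194 5p (0.63), left 35 arms called of 335 tested, and put the mean level of miR-194 5p at 0.0147%. Tags of 20 and 21 nt left miR-194 5p at 1.70 and 97 arms called of 404. Fewer arms and reads entered the fits within a length class. The causes of these changes were not tested, and nothing is read from the calls of the members. Without 1 library at a time, ECS log2 fold changes of miR-192 5p ran from -1.25 to 0.87 at 0.5 h, -0.50 to 0.97 at 1 h, -0.45 to 2.89 at 3 h, 0.31 to 1.70 at 6 h and -0.23 to 1.26 at 24 h. Those of miR-194 5p ran from 0.24 to 4.65 at 0.5 h, -2.12 to 3.32 at 1 h, -3.34 to 3.43 at 3 h, -9.12 to 5.75 at 6 h, where 6h-1 has no count, and 0.061 to 4.47 at 24 h. Where this left a group with 1 library, it was assumed to vary like the others. Between courses the range was -1.76 to -1.04 for miR-192 5p and 2.24 to 3.81 for miR-194 5p, with 92 (without 1h-1) to 157 arms called. DESeq2 called 222. The log2 ratio differed by -5.36 to -3.71 and mean length by 0.505 to 0.630 nt, but 5 pairs cannot reach p under 0.0625. For ECS against untreated the log2 ratio ran from -1.34 to 0.54 (above 0 without NT-2), mean length from 0.0624 to 0.512 nt (p = 0.0333 without 6h-2, exact permutation test) and departing ends from 4.09 to 4.77 points. Counting error is wide for miR-194 5p in the 4 libraries with at most 12 reads.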
